A study of Mus musculus with 18 samples.

Results

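The genes described here are the proteasome family of mouse bone marrow-derived macrophages on their way to osteoclasts, measured by RNA sequencing. They were the genes whose symbol begins with Psma, Psmb, Psmc, Psmd, Psme, Psmf or Psmg and a digit, with pseudogenes left out and at least 180 counts summed over the 18 libraries. Of 34745 genes in the table, 50 had such a name and 49 reached that count. The gene left out was Psmb11, the thymus form of the Psmb5 type, with 0 counts. All 49 genes passed the filter on low counts (14241 genes tested).

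The cells came from Zmat1+/+ mice (wild type, WT) and from littermates with a global deletion of Zmat1 (Zmat1-/-, knockout, KO) on the C57BL/6 background, 4 to 8 weeks old. Marrow cells had been grown with the macrophage growth factor M-CSF, and RANKL, the cytokine that drives osteoclast formation, had then been given together with M-CSF for 0, 1 or 3 days. The 2 labels and 3 days made 6 groups of 3 libraries, and the labels do not say whether libraries of a group came from separate animals, so p-values measure the spread between libraries, which may be technical. Zmat1 itself ran from 3.49 to 7.61 CPM (counts scaled by library size) in the libraries labelled KO and from 2.19 to 7.5 CPM in those labelled WT, so its level did not follow the labels, and directions between genotypes are given by label only.

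The proteasome is the barrel-shaped protease that degrades proteins tagged with ubiquitin. Its core particle stacks rings of alpha subunits (Psma genes) around rings of beta subunits (Psmb genes), of which Psmb5, Psmb6 and Psmb7 cut peptide bonds. Interferon induces Psmb8, Psmb9 and Psmb10, which take the places of Psmb5, Psmb6 and Psmb7 to form the immunoproteasome, known for making peptides for antigen presentation. The regulatory particle caps the core, and its ATPases (Psmc genes) unfold the substrate. Its other subunits (most Psmd genes) include those that bind ubiquitin or remove it. Psme1 and Psme2 form the interferon-inducible cap PA28, Psme3 a nuclear form of it, and Psme4 the cap PA200. The study examined Zmat1 in the formation of osteoclasts and osteoblasts, and the comparison here asked how the genes of the degrading machine itself moved with RANKL and with the label.

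By role, the 49 genes were 15 standard core subunits (the testis form Psma8 among them), 3 immune subunits, 6 ATPases, 11 other subunits of the regulatory particle, 6 activators or inhibitors, 7 assembly chaperones, and Psmc3ip, a recombination factor that carries a matching name and is not a proteasome subunit. The ATPases, the other regulatory subunits and the activators or inhibitors together made 23 regulatory genes. Total counts ran from 13789775 to 17559958 per library. The 49 genes took 0.312% to 0.402% of all counts in the WT day 0 libraries, 0.345% to 0.539% in WT day 1 and 0.487% to 0.517% in WT day 3, and 0.351% to 0.375% in KO day 0, 0.354% to 0.432% in KO day 1 and 0.448% to 0.471% in KO day 3. Day 3 libraries lay above the day 0 libraries of their label without overlap. These are shares of total counts, a scale on which the median of all genes tested also rose from day 0 to day 3 under both labels.

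Markers of several cell types moved with the day, and the part of the cell mixture in the results below was not tested. The 10 osteoclast markers summed to 224 to 649 CPM in WT day 0 and 16040 to 23380 CPM in WT day 3, and to 671 to 988 and 8293 to 17730 CPM in the KO groups of those days. The 5 macrophage markers fell from 8160 to 10860 CPM in WT day 0 to 2619 to 3512 CPM in WT day 3, and from 7507 to 8645 to 2547 to 2942 CPM in the KO groups. The 8 neutrophil markers summed to 662 to 3012 CPM in WT day 0 and 35.8 to 66.9 CPM in WT day 3, against 3650 to 11710 CPM in KO day 0 and 97.6 to 1147 CPM in KO day 3. The 8 stromal or osteoblast markers summed to 64.7 to 4024 CPM in WT day 0, 9639 to 12600 CPM in WT day 3, 869 to 3102 CPM in KO day 0 and 16780 to 25390 CPM in KO day 3. The 5 B cell markers stood at 291 to 406 CPM in WT day 0 and 10.2 to 10.6 CPM in WT day 3, with 1 of them at 0 in all WT day 3 libraries, and at 293 to 388 and 11.6 to 60.7 CPM in the KO groups. The 5 mast cell or eosinophil markers summed to 4.26 to 35.1 CPM in WT day 0, 24.7 to 255 CPM in KO day 0 and at most 7.36 CPM on day 3. The T or NK cell, dendritic cell and erythroid lists summed to at most 8.59, 8.96 and 22.5 CPM in any library. In bulk RNA, fewer cells of a type and less RNA per cell cannot be told apart.

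The immune subunits fell after 3 days of RANKL under both labels, and they were the only class of the family in which every gene did so. In the libraries labelled WT, 3 of 3 passed the test downwards, where 26.5% of all genes tested did (3773 of 14241, edgeR quasi-likelihood test, Benjamini-Hochberg adjusted p under 0.05). In those labelled KO, 3 of 3 also passed downwards, where 22.3% of all genes did. Both counts include Psmb8, whose call ended in 5 of 16 alternatives in WT and in 10 of 16 in KO. Their median log2 fold change was -1.08 (WT) and -1.14 (KO), beside -0.03 and -0.01 over all genes tested.

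Psmb9 (ENSMUSG00000096727, chr17:34181988-34187764, minus strand, GRCm38), the immune counterpart of the caspase-like Psmb6, had 80.9, 78.2 and 146 CPM in the WT day 0 libraries, 93.0, 60.9 and 89.2 CPM in WT day 1, and 49.1, 36.8 and 43.4 CPM in WT day 3. The KO libraries held 115, 65.9 and 115 CPM on day 0, 98.8, 54.7 and 67.5 CPM on day 1, and 52.5, 37.4 and 37.7 CPM on day 3. Under each label, every day 3 library lay below every day 0 library, and day 1 overlapped day 0. The log2 fold change from day 0 to day 3 was -1.24 in WT (SE 0.296, adjusted p = 0.00342) and -1.21 in KO (SE 0.296, adjusted p = 0.00502).

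Psmb10 (ENSMUSG00000031897, chr8:105935728-105938392, minus strand), the counterpart of the trypsin-like Psmb7, had 125, 93.7 and 145 CPM in WT day 0, 119, 92.6 and 120 CPM in WT day 1, and 51.3, 64.5 and 55.8 CPM in WT day 3. The KO libraries had 113, 101 and 118 CPM on day 0, 129, 100.2 and 77.6 CPM on day 1, and 55.3, 46.7 and 48.4 CPM on day 3. Here too the day 3 libraries lay below all day 0 libraries of their label. The log2 fold changes were -1.08 (SE 0.188, adjusted p = 0.000375) and -1.14 (SE 0.189, adjusted p = 0.000408).

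Psmb8 (ENSMUSG00000024338, chr17:34197721-34201454, plus strand), the counterpart of the chymotrypsin-like Psmb5, lies close to Psmb9 in the major histocompatibility complex. It had 178, 122 and 249 CPM in WT day 0, 222, 151 and 188 CPM in WT day 1, and 125, 99.4 and 114 CPM in WT day 3. The KO values were 175, 137 and 190 CPM on day 0, 191, 134 and 149 CPM on day 1, and 125, 101 and 106 CPM on day 3. In WT the lowest day 0 library lay within the day 3 range, whereas in KO the days did not overlap. The log2 fold change was -0.70 in WT (SE 0.229, adjusted p = 0.0209) and -0.60 in KO (SE 0.229, adjusted p = 0.0480). The WT value was -0.38 (not called) without WT day 0 replicate 3, the library with the highest level. The WT call also ended without WT day 3 replicate 2 (-0.61) or 3 (-0.70). Total counts gave -0.34 in WT (adjusted p = 0.305), and fitting only the groups compared also ended the WT call. The KO call ended in 10 of 16 alternatives (adjusted p from 0.0203 to 0.354), among them leaving out KO day 0 replicate 1 or 3 or any 1 of the KO day 3 libraries (-0.69 to -0.47).

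The standard catalytic subunits moved the other way or did not pass the test. Psmb5 (ENSMUSG00000022193, chr14:54614120-54617995, minus strand) had 63.2, 48.4 and 65.0 CPM in WT day 0, 133, 79.3 and 115 CPM in WT day 1, and 124, 105 and 116 CPM in WT day 3. Its KO values were 66.3, 76.8 and 71.0 CPM on day 0, 77.3, 74.8 and 89.1 CPM on day 1, and 102, 103 and 93.4 CPM on day 3. Each day 3 library lay above the day 0 libraries of its label. From day 0 to day 3 Psmb5 rose by 0.97 on the log2 scale in WT (SE 0.163, adjusted p = 0.000292) and 0.48 in KO (SE 0.162, adjusted p = 0.0280). In KO a replicate block within label gave 0.48 (adjusted p = 0.0509), which ended the call. It also ended without KO day 0 replicate 1 or 3 or KO day 3 replicate 1 or 2, over which the adjusted p reached 0.075.

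Psmb7 (ENSMUSG00000026750, chr2:38588036-38644087, minus strand) had 68.3, 67.2 and 82.9 CPM in WT day 0, 137, 67.8 and 105 CPM in WT day 1, and 136, 116 and 142 CPM in WT day 3. The KO libraries had 73.1, 73.7 and 77.7 CPM on day 0, 78.4, 78.4 and 92.9 CPM on day 1, and 108, 103 and 99.98 CPM on day 3. Psmb7 rose in WT by a log2 fold change of 0.85 (SE 0.185, adjusted p = 0.00183). In KO the value was 0.47 (SE 0.185, adjusted p = 0.0509), although the days did not overlap.

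Psmb6 (ENSMUSG00000018286, chr11:70525367-70527858, plus strand) had 181, 130 and 157 CPM in WT day 0, 215, 236 and 189 CPM in WT day 1, and 191, 171 and 183 CPM in WT day 3. In KO the values were 147, 193 and 172 CPM on day 0, 207, 195 and 174 CPM on day 1, and 174, 169 and 170 CPM on day 3. Days 0 and 3 overlapped under both labels. The log2 fold change was 0.22 in WT (SE 0.134, adjusted p = 0.175) and 0.00 in KO (SE 0.134, adjusted p = 0.999).

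**Figure D1:**
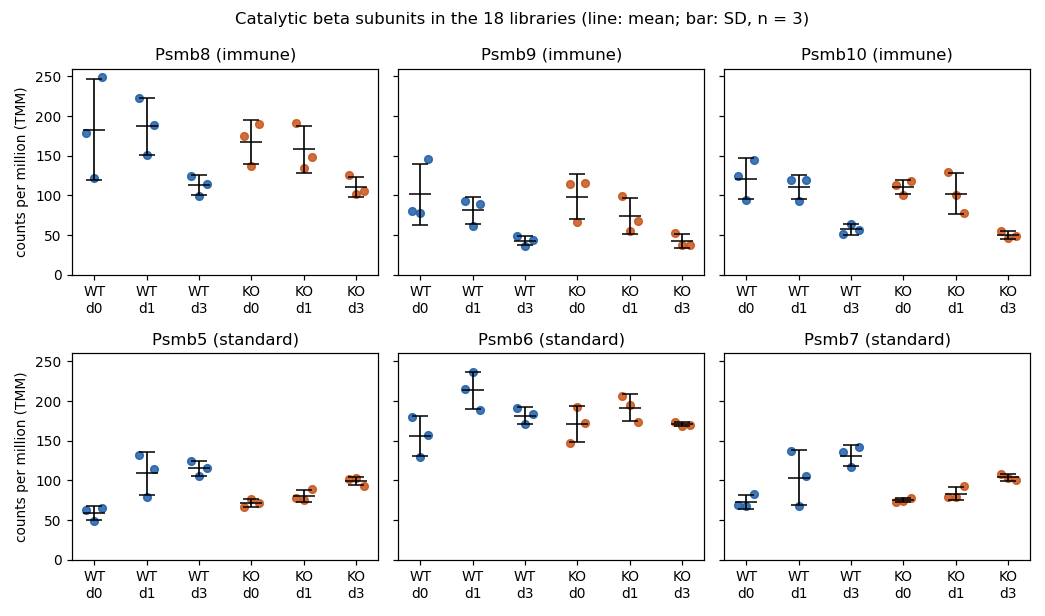
TMM-scaled CPM (vertical axis, from 0) of the 3 immune and 3 standard catalytic subunits in each of the 18 libraries, by label (WT blue, KO orange) and day (d0, d1, d3), with the group mean and SD (n = 3). Psmb9 and Psmb10 lie lower in every day 3 library than in any day 0 library of the same label, and Psmb5 and Psmb7 lie higher.

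Each immune gene was then set against the standard gene it replaces within the same library, a ratio that no scaling of libraries can change. Counts were divided by the length of the principal transcript in the GENCODE M21 annotation (899 bases for Psmb5, 798 for Psmb6, 1160 for Psmb7, 1628 for Psmb8, 1352 for Psmb9 and 1311 for Psmb10). On this scale of transcript per transcript, Psmb8 to Psmb5 stood at 1.56, 1.39 and 2.11 in WT day 0, 0.926, 1.05 and 0.909 in WT day 1, and 0.555, 0.522 and 0.544 in WT day 3. In KO the ratio was 1.46, 0.987 and 1.48 on day 0, 1.37, 0.991 and 0.923 on day 1, and 0.676, 0.545 and 0.627 on day 3. At these lengths the ratio was above 1 in 5 of 6 day 0 libraries and in 0 of 6 day 3 libraries. Its place against 1 depends on the lengths, whereas its change between days does not. The deposited FPKM values imply other lengths, 3848 bases for Psmb8 and 871 for Psmb5, so which transcript was the more abundant is not settled.

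Psmb10 to Psmb7 was 1.61, 1.23 and 1.55 in WT day 0, 0.770, 1.21 and 1.01 in WT day 1, and 0.335, 0.491 and 0.348 in WT day 3. The KO ratios were 1.37, 1.21 and 1.35 on day 0, 1.46, 1.13 and 0.739 on day 1, and 0.451, 0.3995 and 0.428 on day 3. At these lengths this pair went from above 1 in 6 of 6 day 0 libraries to below 1 in 6 of 6 day 3 libraries. Here too the place against 1 depends on the lengths, which the FPKM values put at 1270 bases for Psmb10 and 3560 for Psmb7.

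Psmb9 to Psmb6 was below 1 throughout. It was 0.265, 0.356 and 0.548 in WT day 0, 0.255, 0.152 and 0.279 in WT day 1, and 0.152, 0.127 and 0.140 in WT day 3. In KO it was 0.460, 0.201 and 0.395 on day 0, 0.282, 0.166 and 0.230 on day 1, and 0.178, 0.131 and 0.131 on day 3.

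All 3 ratios were lower in every day 3 library than in any day 0 library of the same label. The mean log2 difference between day 3 and day 0, averaged over the labels, was -1.34 for Psmb8 to Psmb5, -1.31 for Psmb9 to Psmb6 and -1.77 for Psmb10 to Psmb7 (exact two-sided permutation of the days within each label, 400 orders, p = 0.005 each, the smallest this design allows, adjusted p = 0.01 over 6 tests). Within WT the differences were -1.62, -1.42 and -1.92, and within KO -1.07, -1.20 and -1.62. Between the labels, with the label permuted within days (8000 orders), the mean log2 differences of KO minus WT were -0.01, -0.04 and 0.04 (exact permutation, adjusted p = 0.971 each). On day 0 alone KO minus WT was -0.37 for Psmb8 to Psmb5, -0.17 for Psmb9 to Psmb6 and -0.15 for Psmb10 to Psmb7, and on day 3 it was 0.18, 0.06 and 0.14.

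**Figure D2:**
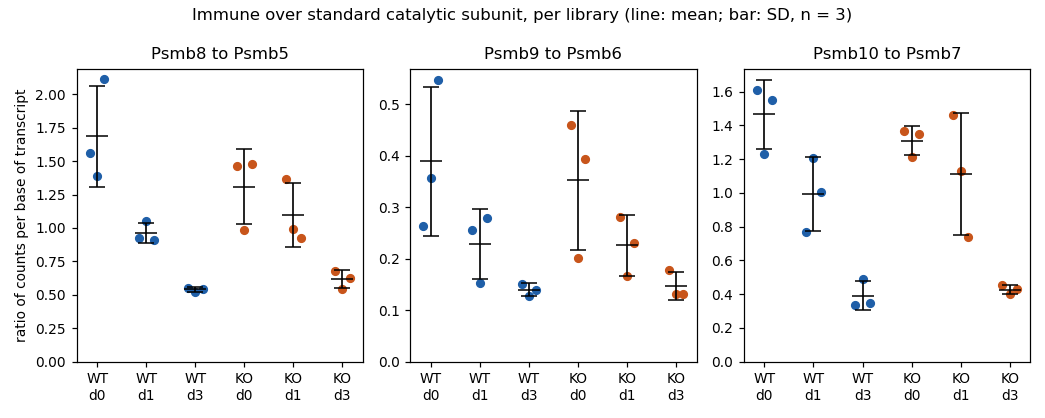
Ratio of the immune to the standard subunit (counts per base of the principal transcript, vertical axes from 0, own scale in each panel) in each of the 18 libraries by label and day (d0, d1, d3), with group mean and SD (n = 3). The day 3 libraries lie between 0.522 and 0.676 for Psmb8 to Psmb5, between 0.127 and 0.178 for Psmb9 to Psmb6 and between 0.335 and 0.491 for Psmb10 to Psmb7, below every day 0 library.

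Sequences before the RefSeq starts of these genes are shown because the catalytic pairs moved apart. They come from RefSeq promoters (GRCm38.p6), of which 41 of the 49 genes had an entry (44 promoters), and Psmb7 had none. The 250 bases before the start were searched on both strands for TGACNNNGC (the antioxidant response element read by NFE2L1 and NFE2L2, activators of proteasome genes), GAAA and GAAA with any 2 bases between them (the interferon-stimulated response element) and TTCNNNGAA (the gamma-activated site of interferon signalling). Only bases outside annotated exons are printed, 5′ to 3′ on the strand of the gene, with matches in capitals.
Psmb5, chr14:54618023-54618245, minus strand: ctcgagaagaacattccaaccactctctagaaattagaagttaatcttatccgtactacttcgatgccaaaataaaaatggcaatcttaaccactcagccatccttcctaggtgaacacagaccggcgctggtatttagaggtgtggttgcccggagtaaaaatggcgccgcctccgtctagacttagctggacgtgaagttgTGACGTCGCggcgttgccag
Psmb6, chr11:70525107-70525356, plus strand: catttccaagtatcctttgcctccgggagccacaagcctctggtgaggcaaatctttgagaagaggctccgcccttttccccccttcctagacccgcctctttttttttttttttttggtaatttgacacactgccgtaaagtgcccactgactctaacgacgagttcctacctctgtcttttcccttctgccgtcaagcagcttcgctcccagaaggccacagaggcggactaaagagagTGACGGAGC
Psmb10, chr8:105938445-105938642, minus strand: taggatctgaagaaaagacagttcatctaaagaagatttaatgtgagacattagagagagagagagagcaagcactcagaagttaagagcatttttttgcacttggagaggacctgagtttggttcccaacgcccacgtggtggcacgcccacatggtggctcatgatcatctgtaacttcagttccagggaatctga
The windows of Psmb8 and Psmb9 lay wholly within annotated exons, so for Psmb8 only the match and 10 bases on each side are shown.
Psmb8, chr17:34198088-34198116, plus strand: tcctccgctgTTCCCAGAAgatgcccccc

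The TGACNNNGC match began 47 bases before the start of Psmb5, which rose, and 9 bases before that of Psmb6, which was not called. The TTCNNNGAA match of Psmb8 began 97 bases before its RefSeq start but inside an annotated exon, and the window of Psmb10 held none of these motifs. Over the 44 promoters, 11.4% held TGACNNNGC, against 10.2% of 32851 promoters of all genes. The interferon element was found in 3 promoters (6.82%, against 2.98%), those of Psmb3, Psmd4 and Psmd9. None of these is an immune subunit. TTCNNNGAA was found in 2 promoters (4.55%, against 7.02%). Of the 6 genes that fell in WT, 1 promoter held TTCNNNGAA and 0 held either of the others. The windows of Psmb8, Psmb9, Psme1 and Psmf1 lay within the annotated positions of these genes. For these genes the search therefore did not cover the bases before the annotated gene start. No match overlapped a match of another motif, and a match or its lack says nothing here of whether a factor was bound.

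The other standard core subunits rose or did not pass the test. In WT, 6 of 15 standard core genes rose and 0 fell from day 0 to day 3, and all 15 had values above 0 (median log2 fold change 0.29), where 23.7% of all genes tested rose. Beside Psmb5 and Psmb7 these were Psmb3 (0.73, SE 0.194, adjusted p = 0.00626), Psma3 (0.80, SE 0.258, adjusted p = 0.0190), Psma6 (0.53, SE 0.115, adjusted p = 0.00177) and Psma8. The 9 not called had log2 fold changes from 0.02 (Psmb2) to 0.29 (Psmb4). In KO, 1 of 15 rose, Psmb5, and 0 fell (median 0.08), where 20.2% of all genes rose.

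Psma8, the alpha subunit of germ cells, was the scarcest of the family and had 0.824, 0.155 and 0.715 CPM in WT day 0 and 2.63, 1.47 and 1.68 CPM in WT day 3. In KO it had 1.64, 1.62 and 1.82 CPM on day 0 and 3.28, 3.92 and 2.44 CPM on day 3. The log2 fold change of 1.76 in WT (SE 0.463, adjusted p = 0.00615) was the largest rise of the family and rested on 503 counts over the 18 libraries. The WT call ended in the edgeR fit of only the groups compared (adjusted p = 0.0527). In KO the value was 0.92 (adjusted p = 0.0942). Title style went with 7 genes of the family (14.3%, against 23.2% of all genes): Psma2, Psma3, Psma5, Psmb3 and Psmb4 were lower and Psmb6 and Psmd8 higher in the libraries whose titles have 2 hyphens (for Psma3 and Psmb3, log2 differences of -0.56 and -0.40, adjusted p = 0.00835 and 0.0127), a style that appeared in 5 titles of days 0 and 1 and in 0 of day 3. With title style as a covariate 28 genes of the family were called in WT in place of 27. The Psma3 call ended without WT day 0 replicate 1 or 2 or WT day 3 replicate 2 or 3 (adjusted p up to 0.0701).

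Of the 17 genes of the regulatory particle, 10 rose, 0 fell and 7 did not pass the test from day 0 to day 3 in WT, where 23.7% of all genes rose: 2 of 6 ATPases (median log2 fold change 0.20) and 8 of 11 other subunits (median 0.51). Psmd14, the deubiquitinase of the lid, had 43.0, 30.7 and 45.4 CPM in WT day 0, 66.0, 60.0 and 53.6 CPM in WT day 1, and 66.9, 67.2 and 71.0 CPM in WT day 3. The KO libraries had 42.7, 51.5 and 45.5 CPM on day 0, 53.2, 51.3 and 60.4 CPM on day 1, and 60.0, 60.9 and 68.5 CPM on day 3. The groups of day 0 and day 3 did not overlap under either label, with log2 fold changes of 0.78 in WT (SE 0.138, adjusted p = 0.000397) and 0.44 in KO (SE 0.137, adjusted p = 0.0192).

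Among the other subunits, the lid subunits Psmd12 (0.68, adjusted p = 0.000122), Psmd3 (0.67, adjusted p = 0.000644), Psmd7 (0.59, adjusted p = 0.000861), Psmd11 (0.51, adjusted p = 0.000577) and Psmd6 (0.38, adjusted p = 0.0212) rose in WT. So did the large base subunits Psmd2 (0.59, adjusted p = 0.00248) and Psmd1 (0.49, adjusted p = 0.00666). The ubiquitin receptor Psmd4 (-0.10, adjusted p = 0.373), Psmd13 (0.12, adjusted p = 0.405) and Psmd8 (0.23, adjusted p = 0.331) did not pass the test. Of the ATPases, Psmc5 (0.52, adjusted p = 0.0183) and Psmc4 (0.34, adjusted p = 0.0247) rose, and the other 4 ran from -0.17 (Psmc1) to 0.23 (Psmc6). The Psmc5 and Psmc4 calls ended without WT day 0 replicate 2 or WT day 3 replicate 1 (adjusted p up to 0.0663 and 0.0864), and that of Psmd6 without WT day 0 replicate 2 or WT day 3 replicate 3. In KO, where 20.2% of all genes rose, a share near that of these genes, 4 of 17 rose, namely Psmd14, Psmd2 (0.42, adjusted p = 0.0215), Psmd3 (0.40, adjusted p = 0.0204) and Psmd7 (0.35, adjusted p = 0.0249), and 0 fell. Each of these KO calls ended when 1 of 2 or 3 libraries was left out: KO day 3 replicate 3 in all 4, KO day 3 replicate 2 in all but Psmd14, and KO day 0 replicate 1 (Psmd14), 2 (Psmd3) or 3 (Psmd7).

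The genes of the caps did not all move alike. Psme1 (ENSMUSG00000022216, chr14:55578123-55581529, plus strand), the alpha chain of PA28, had 126, 88.5 and 141 CPM in WT day 0, 100.4, 104 and 101 CPM in WT day 1, and 55.2, 56.2 and 53.1 CPM in WT day 3. KO libraries held 105, 108 and 110 CPM on day 0, 130, 122 and 82.0 CPM on day 1, and 50.0, 53.3 and 51.6 CPM on day 3. Every day 3 library, of either label, lay below every library of days 0 and 1. Psme1 fell by a log2 fold change of -1.11 in WT (SE 0.165, adjusted p = 0.000113) and -1.06 in KO (SE 0.165, adjusted p = 0.000275).

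Psme2, the beta chain that joins Psme1, had 27.7, 20.4 and 29.6 CPM in WT day 0 and 23.6, 24.5 and 25.3 CPM in WT day 3, with 26.3, 34.8 and 25.8 CPM in KO day 0 and 23.4, 20.8 and 18.3 CPM in KO day 3. Its values are uncertain, since the intronless copy Psme2b (chr11:48945354-48946190) is 99.37% identical to the Psme2 transcript over 794 aligned bases and held 29552 counts against 7418 for Psme2. Psme2b had 118, 96.0 and 137 CPM in WT day 0 and 106, 94.1 and 88.7 CPM in WT day 3, with 111, 104 and 96.1 CPM in KO day 0 and 81.6, 78.2 and 78.6 CPM in KO day 3. With the counts of both summed, a step added once values were known, the log2 fold change was -0.24 in WT (SE 0.195, adjusted p = 0.305) and -0.41 in KO (SE 0.196, adjusted p = 0.106). The sum did not pass the test under either label, unlike Psme1.

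Psme3, the gamma form of PA28, rose in WT from 94.5, 67.9 and 86.9 CPM on day 0 to 113, 120 and 116 CPM on day 3 (log2 fold change 0.49, SE 0.146, adjusted p = 0.0125). In KO it had 80.5, 104 and 73.2 CPM on day 0 and 108, 107 and 108 CPM on day 3 (0.32, SE 0.146, adjusted p = 0.0888). Psme4, the chain of PA200, fell from 191, 194 and 194 CPM in WT day 0 to 135, 128 and 123 CPM in WT day 3 (-0.58, SE 0.116, adjusted p = 0.001). In KO it went from 164, 155 and 135 CPM to 120, 101 and 137 CPM (-0.34, SE 0.116, adjusted p = 0.0299), where the lowest day 0 library lay just below the highest day 3 library. Psmf1, the core-binding protein PI31, had 38.9, 27.1 and 33.6 CPM in WT day 0 and 26.9, 21.6 and 23.7 CPM in WT day 3 (-0.46, SE 0.134, adjusted p = 0.0103). The KO values were 31.5, 33.2 and 32.7 CPM on day 0 and 24.4, 26.0 and 25.0 CPM on day 3 (-0.37, SE 0.134, adjusted p = 0.0378). The Psme4 and Psmf1 falls shrank under plain total counts, to -0.22 (adjusted p = 0.11) and -0.09 (adjusted p = 0.537) in WT, and to -0.05 (adjusted p = 0.726) and -0.08 (adjusted p = 0.623) in KO. Psmf1 in WT was also not called without WT day 0 replicate 1 or WT day 3 replicate 2, and in KO it was not called without any 1 of the 6 libraries. Psme4 in KO lost its call without KO day 0 replicate 1 or 2, or KO day 3 replicate 1 or 2. No filter or DESeq2 size factors also ended the KO calls of Psme4 and Psmf1.

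Of the 7 assembly chaperones, 4 rose and 0 fell in WT (23.7% of all genes rose), and 2 rose and 0 fell in KO (20.2%, a share near that of the chaperones). Psmd10 (gankyrin) had 28.2, 19.6 and 22.1 CPM in WT day 0, 50.8, 22.4 and 39.0 CPM in WT day 1, and 48.5, 44.8 and 66.9 CPM in WT day 3. In KO it had 22.5, 26.7 and 23.4 CPM on day 0, 34.1, 29.7 and 28.0 CPM on day 1, and 36.8, 46.8 and 30.4 CPM on day 3. The day 3 libraries lay above those of day 0 under each label, with log2 fold changes of 1.20 in WT (SE 0.256, adjusted p = 0.00161) and 0.65 in KO (SE 0.254, adjusted p = 0.0509). Psmd5, a chaperone of the regulatory base, rose from 28.9, 40.3 and 31.8 CPM to 52.8, 58.1 and 48.6 CPM in WT (0.66, SE 0.139, adjusted p = 0.00148) and from 33.6, 33.6 and 29.6 CPM to 47.9, 55.9 and 49.2 CPM in KO (0.66, SE 0.139, adjusted p = 0.00208). Psmg1, a core chaperone, also rose under both labels (0.85 and 0.66, adjusted p = 0.0073 and 0.0313), although in KO its call ended without KO day 0 replicate 2 or 3 or KO day 3 replicate 1 or 2. Its partner Psmg2 rose in WT (0.63, adjusted p = 0.0409), a call that ended in 7 of 16 alternatives, leaving out WT day 0 replicate 1 or 2 or any WT day 3 library among them. Psmg3, Psmg4 and Psmd9 did not pass the test under either label.

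Over the whole family, 27 of 49 genes were called in WT from day 0 to day 3 (21 higher, 6 lower), where 50.2% of all genes were called. In KO 13 of 49 were called (7 higher, 6 lower), where 42.5% of all genes were. These counts lay near the share of all genes in WT and below it in KO. By whether libraries overlapped, 24 genes of the family were higher in all WT day 3 libraries and 5 lower, where 31.5% and 31% of all genes were, and in KO 17 were higher and 9 lower, where 29.4% and 29.4% were. At the cut-off used in the study (an unadjusted p under 0.05 with a fold above 1.5 or below 0.66), 15 rose and 4 fell in WT, where 22.7% and 22.6% of all genes did, and 5 rose and 3 fell in KO, where 19.8% and 19% did. The 6 genes that fell were the same under both labels (Psmb8, Psmb9, Psmb10, Psme1, Psme4 and Psmf1). In KO the calls of Psmb8 and Psmf1 each ended in 10 of 16 alternatives, and that of Psme4 in 8. The 7 that rose in KO were all among the 21 of WT, and 14 genes were called in WT and not in KO. Libraries scaled by total counts, without the trimmed mean of M values (TMM), gave 39 calls in WT (36 higher, 3 lower) and 26 in KO (23 higher, 3 lower), and that scaling moved the median of all genes to 0.33 and 0.29. The 3 genes still called lower under it were Psmb9, Psmb10 and Psme1 under both labels. The KO count was 5 without KO day 3 replicate 2 and 8 without KO day 0 replicate 1 or 3 or KO day 3 replicate 1 or 3.

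**Figure D3:**
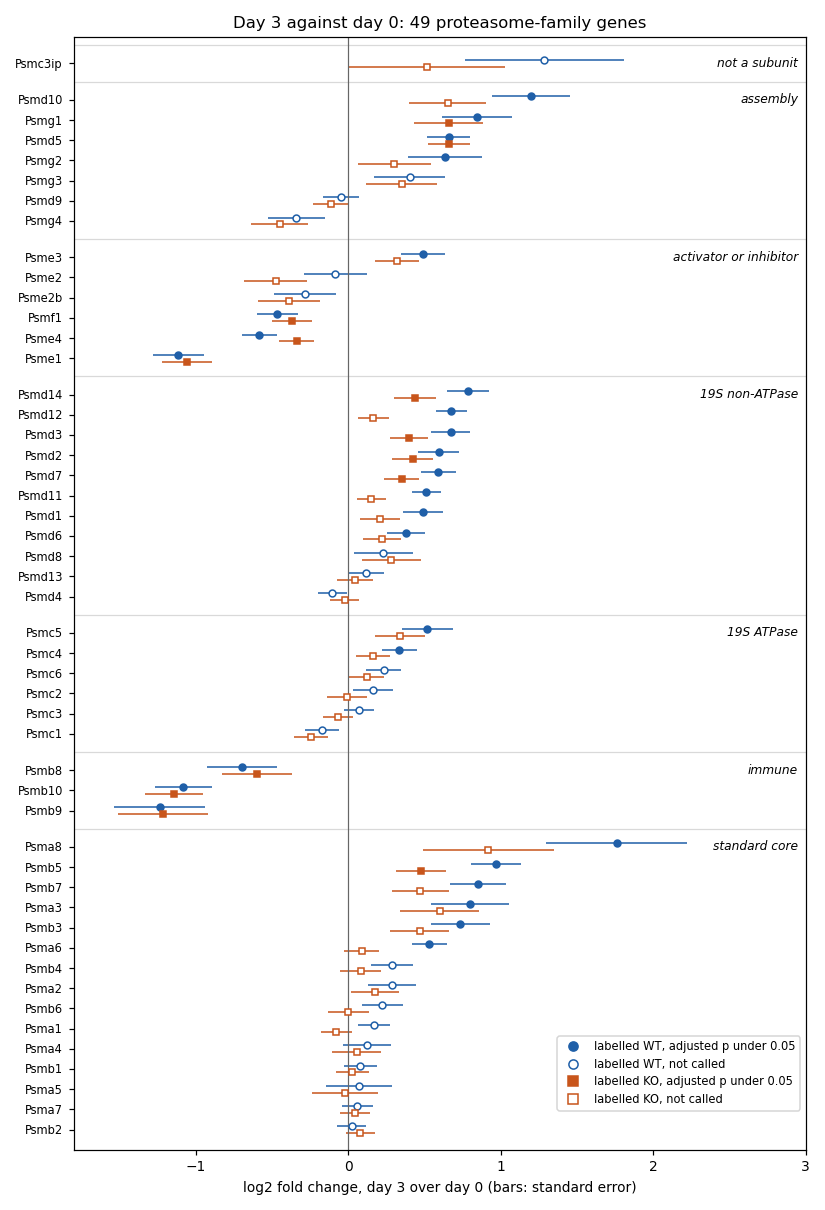
Log2 fold change from day 0 to day 3 (horizontal axis) with its standard error for the 49 genes, grouped by role, in the libraries labelled WT (circles) and KO (squares), with filled symbols for an adjusted p under 0.05 in edgeR. The 3 immune subunits and Psme1 lie at the left between -1.24 and -0.60 under both labels, whereas most regulatory subunits lie right of 0 and farther right in WT.

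After 1 day of RANKL, genes of the family passed the test in the libraries labelled WT, and the count depended on single libraries. In WT 8 of 49 genes rose and 0 fell, where 2.35% of all genes were called, 1.44% higher and 0.913% lower. They were Psmb5 (0.89, SE 0.163, adjusted p = 0.0342), the ATPase Psmc4 (0.51, adjusted p = 0.0405) and 6 other regulatory subunits, from Psmd1 (0.62, adjusted p = 0.0381), Psmd2 (0.60, adjusted p = 0.0405) and Psmd14 (0.59, adjusted p = 0.0447) to Psmd3 (0.54, adjusted p = 0.0449), Psmd12 (0.51, adjusted p = 0.0368) and Psmd11 (0.50, adjusted p = 0.0342). All 8 were also higher on day 3. The immune subunits had values of -0.33 (Psmb9), -0.13 (Psmb10) and 0.03 (Psmb8) and overlapped day 0. The count was 0 without WT day 0 replicate 2, without WT day 1 replicate 2 or without the WT day 1 replicate 1 whose title has 1 hyphen, and 4 without WT day 0 replicate 1. All 8 calls also ended with the replicate number as a block, over all groups or within label, and with only the groups compared in the fit. It was 21 without the other WT day 1 library numbered 1, whose title has 2 hyphens, an alternative added once values were known. That library held 0.345% of its counts in the family, against 0.539% and 0.466% in the other 2 of its group.

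In KO, 0 of 49 genes were called on day 1 (0 by the DESeq2 Wald test as well), where 0.0211% of all genes were, and 1 gene, Psmd1, had an unadjusted p under 0.05 (log2 fold change 0.29, adjusted p = 0.481), as 10.2% of all genes had. The difference between the labels on day 1 was tested by itself: KO minus WT was negative for 46 of 49 genes (median -0.18, beside -0.02 over all genes), and 0 passed an adjusted p of 0.05 by edgeR or DESeq2, where 0.112% of all genes did. At an unadjusted p under 0.05 there were 8 genes, where 7.9% of all genes had one. The lowest unadjusted p was that of Psma1 (-0.33, SE 0.103, adjusted p = 0.482). Without the 2-hyphen WT day 1 library, Psmb5 was called lower in KO (-0.62, adjusted p = 0.0483).

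**Figure D4:**
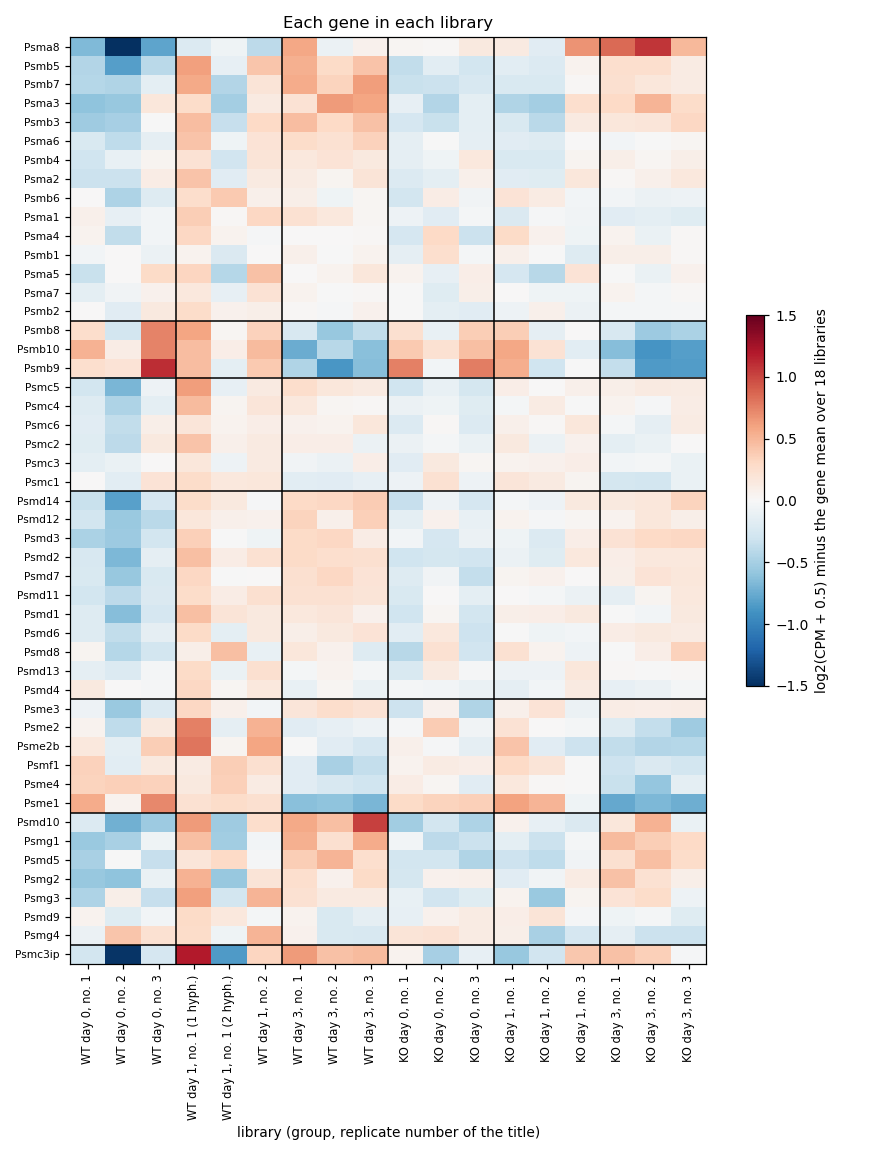
Each of the 49 genes (rows, grouped by role as standard core, immune, ATPase, other regulatory, activator or inhibitor, assembly and Psmc3ip) in each of the 18 libraries (columns), as log2(CPM + 0.5) minus the mean of the gene over all libraries, with colours ending at -1.5 and 1.5. The immune rows and the Psme1 row lie below their means in all 6 day 3 libraries.

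On day 0, before RANKL, 0 of 49 genes differed between the labels (0 by DESeq2), where 0.119% of all genes did. Unadjusted p-values under 0.05 were found for 4 genes (7.59% of all genes had one): Psma8 (KO minus WT 1.57), Psmd12 (0.35), Psmd3 (0.31) and Psme4 (-0.35), with adjusted p from 0.482 to 0.6. The neutrophil markers, as given above, did not overlap between the labels on that day. The immune subunits had KO minus WT values of -0.13 (Psmb8), -0.04 (Psmb9) and -0.13 (Psmb10).

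On day 3, 0 of 49 genes differed between the labels at an adjusted p under 0.05 (0 by DESeq2), where 0.14% of all genes did, and 2 had an unadjusted p under 0.05 (10.7% of all genes), Psma1 (-0.31, SE 0.103, adjusted p = 0.324) and Psma6 (-0.29, SE 0.115, adjusted p = 0.398). The direction was shared: 41 of 49 genes had negative values (median -0.09, beside 0.02 over all genes), and 13 were lower in all 3 KO libraries than in any WT library, where 13.3% of all genes were, against 0 that were higher (15.9% of all genes). They included the standard subunits Psma1, Psma6, Psmb2, Psmb4, Psmb5 and Psmb7, and 0 of the 3 immune subunits, whose values were -0.03 (Psmb8), -0.02 (Psmb9) and -0.19 (Psmb10). Stromal or osteoblast, neutrophil and B cell markers summed to more in every KO day 3 library than in any WT day 3 library (sums above). All 10 osteoclast markers had KO minus WT values below 0 on that day (median -0.56), and 0 of these markers passed an adjusted p of 0.05. The part of these cell types in the differences was not tested.

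The change from day 0 to day 3 was then compared between the labels by an interaction term. It called 0 of 49 family genes and 0% of all genes, with unadjusted p under 0.05 for 4 of the 49 (5.4% of all genes): Psmd12 (KO change minus WT change -0.51, SE 0.142), Psma6 (-0.44, SE 0.162), Psmd11 (-0.36, SE 0.133) and Psmb5 (-0.49, SE 0.228), each with an adjusted p = 0.91. The value was negative for 40 of 49 genes (median -0.17, beside 0.02 over all genes), and for the immune subunits it was 0.10 (Psmb8), 0.02 (Psmb9) and -0.06 (Psmb10). So the larger count of calls in WT came with 0 genes past the test of the difference itself (0 by DESeq2).

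**Figure D5:**
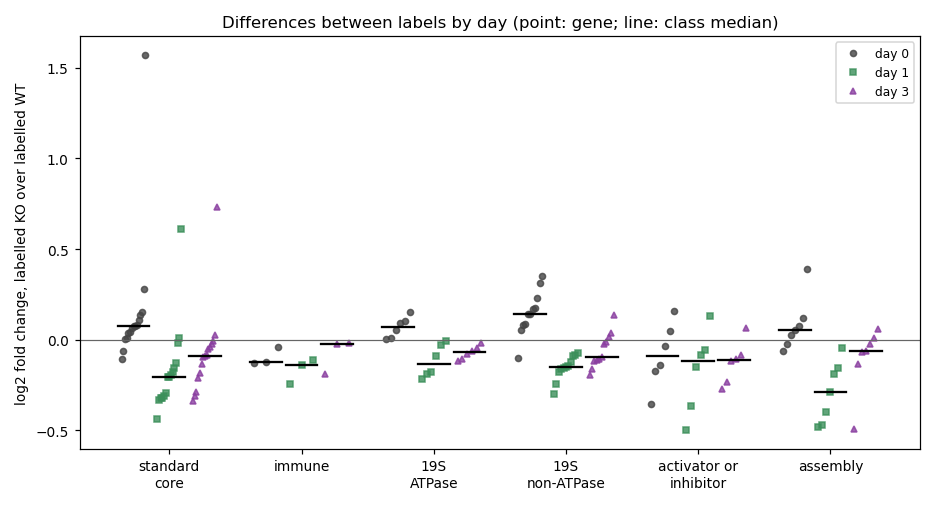
Log2 fold change of KO over WT (vertical axis) for each gene of 6 roles on day 0 (circles), day 1 (squares) and day 3 (triangles), with the class median as a line. On days 1 and 3 all 6 class medians lie below 0, on day 0 those of the immune genes and of the activators or inhibitors do, and 0 genes passed an adjusted p of 0.05.

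Genes that work beside the proteasome gave a mixed picture, from lists assembled for this description. From day 0 to day 3, 23.7% of all genes rose and 26.5% fell in WT, and 20.2% rose and 22.3% fell in KO. The core-maturation factor Pomp fell under both labels from day 0 to day 3 (log2 fold change -0.40 in WT, adjusted p = 0.0260, and -0.60 in KO, adjusted p = 0.00379), and it was the 1 gene lower of 9 assembly and regulatory-particle partners tested, with 3 higher under each label. Of 16 ubiquitin, shuttle and unfolding genes, 6 rose and 2 fell in WT, and 5 rose and 2 fell in KO. Of 5 transcription-control genes, 0 rose and 2 fell under each label, and Nfe2l1, whose product activates proteasome genes, had -0.57 in WT (SE 0.618, adjusted p = 0.451) and -0.40 in KO (SE 0.616, adjusted p = 0.625).

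The interferon-response genes fell with the immune subunits, and most antigen presentation genes did. All 17 interferon-response genes fell under both labels from day 0 to day 3, where 26.5% (WT) and 22.3% (KO) of all genes fell (median log2 fold change -2.90 in WT and -2.49 in KO). Irf1 fell by -1.93 and -1.33 and Nlrc5, the class I transactivator, by -1.95 and -1.58. Of 10 antigen presentation genes, 7 fell and 2 rose in WT, and 7 fell and 1 rose in KO, where 23.7% and 20.2% of all genes rose. Calr, a chaperone of class I loading, rose under both labels (0.90, adjusted p = 0.00364, and 0.75, adjusted p = 0.0126), and its partner Pdia3 rose in WT (0.53, adjusted p = 0.0215) and had 0.43 in KO (adjusted p = 0.0599). Tap1, the peptide transporter chain whose gene shares its upstream region with Psmb9, fell by -1.65 (adjusted p = 0.000272) and -1.27 (adjusted p = 0.00229), whereas its partner Tap2 had 0.10 (adjusted p = 0.621) and 0.00 (adjusted p = 0.987). B2m, the light chain of class I molecules, fell by -1.30 (adjusted p = 0.00292) and -1.35 (adjusted p = 0.00313). The sum of the interferon genes spread from 1939 to 6771 CPM within WT day 0, the group in which Psmb8 and Psmb9 also had their largest SD (63.7 and 38.2 CPM).

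Compared per kilobase of principal transcript, levels between genes ranked as follows on day 0 in WT. Psmb6 was highest of the 49, with 195 ± 32.0 CPM per kilobase (SD, n = 3), and remained first in all 6 groups. Psmb8 ranked 4 with 112 ± 39.1, Psme1 6 with 107 ± 24.4 and Psmb10 8 with 92.4 ± 19.8, values that did not differ beyond their spread. Psmb5 and Psmb7 followed at 65.5 ± 10.1 and 62.8 ± 7.54. In WT day 3 Psmb5 ranked 3 (128 ± 10.8) and Psmb7 6 (113 ± 11.6), with Psmb8 at 69.3 ± 7.88, Psme1 at 49.3 ± 1.40, Psmb10 at 43.6 ± 5.12 and Psmb9 at 31.9 ± 4.56. In KO day 3 the same order held among these genes, with Psmb5 at 111 ± 5.86, Psmb7 at 89.6 ± 3.63, Psmb8 at 68.1 ± 7.77, Psme1 at 46.4 ± 1.49, Psmb10 at 38.2 ± 3.47 and Psmb9 at 31.5 ± 6.38. The assembly chaperones were scarcer by class median, with 9.44 CPM per kilobase in WT day 0 and 12.7 in WT day 3. The classes overlapped, since Psmg4 (29.4 in WT day 0) and Psmd10 (37.3 in WT day 3) lay above the core subunit Psma5 (22.5 and 23.6). At these lengths each standard subunit lay above the immune subunit of its own site on day 3 under both labels. The order of genes depends on the lengths used.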

How the data were processed

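Bone marrow-derived macrophages of both labels were sequenced after 0, 1 or 3 days of RANKL (18 libraries, 3 per group). The authors extracted total RNA, made SMARTer messenger RNA libraries and deposited whole-number read counts and FPKM values per gene (StringTie and Ballgown). The submitters' processing notes name GRCm38.p4 and mm10. The aligner and the counting program are not given in the sources used here. The FPKM values were the counts divided by library total and by a fixed length per gene (in 11032 of 11032 well-covered genes checked), and that length was not the principal transcript (6303 bases for Psmb9), so the counts were used with GENCODE M21 lengths. That annotation gave 37 of the 49 genes the position in the table. Depth was 13789775 to 17559958 counts per library.

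Genes were filtered with filterByExpr, scaled by TMM and fitted as 6 groups with edgeR 4.0.16 (glmQLFit, glmQLFTest, R 4.3.3). P-values are two-sided and adjusted over 14241 genes. CPM values use TMM-adjusted library sizes. The log2 ratios of the permutation test used counts plus 0.5. The ratios given per library used plain counts divided by transcript length. The exact permutation test takes libraries of different days as independent. The fit was tested on simulated counts. The alternatives were no filter or at least 5 CPM in 3 libraries, DESeq2 size factors, total counts, a Wald test (DESeq2 1.42.0), fits restricted to the groups compared, the replicate number or the title style as a term, the mean of both WT day 1 libraries numbered 1, a pseudocount of 5 and the FPKM values for the ratios, and each library left out. Deviations from the group means correlated between same-numbered libraries of days 0 and 3 at r = 0.13, 0.135 and 0.398 in KO. In WT they correlated at 0.111, -0.023 and 0.0514. Between days 0 and 1 the KO pairs had 0.0536, 0.501 and 0.598. Pairs with different numbers were not compared, so a tie to the number was not tested. What a shared number stands for is not given in the labels. WT day 1 has 2 libraries numbered 1 and none numbered 3. The 49 genes, the lists and the rule for named genes (the catalytic subunits and their immune forms, Psme1 to Psme4, Psmf1, the 3 largest rises and falls in WT, and genes of linked pathways) were chosen with earlier results of these data known. Further genes were named with their values known. The values of 1 gene of the linked lists are not reported here.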

Additional observations from a re-analysis of the deposited data

How the results depend on the processing

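The count of family genes called from day 0 to day 3 in WT ran from 22 to 31 when each library was left out, and every other alternative kept it within 1.5 times of 27. In KO the count of 13 became 26 under total counts and 20 when only the groups compared were fitted, and ran from 5 to 12 with a library left out. The WT day 1 count of 8 was the least stable: it was 3 with no filter, 5 under total counts, 13 by the DESeq2 Wald test and 0 when only the groups compared were fitted, and ran from 0 to 21 with a library left out. With title style as a covariate all 8 calls held, and Psma6, Psmb3, Psmb6 and Psmd7 were called higher too. With the replicate block the WT day 1 count was 0 over all groups and 0 within label. What the numbers of WT libraries share is not known. Deviations of WT day 0 replicate 1 correlated at r = 0.604 with the 2-hyphen WT day 1 replicate 1 and at -0.464 with the 1-hyphen one. Those of WT replicate 2 correlated at 0.138 between days 0 and 1. The replicate block gave 28 calls in WT and 14 in KO for day 3, and 26 and 12 within label, and of the day 3 calls ended those of Psmb5 in KO and Psmg2 in WT within label, and no other. Counts between the labels stayed at 0 in every alternative, apart from 1 on day 1 without the 2-hyphen WT day 1 library (range 0 to 1). The immune to standard ratios between days ran from -1.44 to -1.26 (Psmb8 to Psmb5), -1.49 to -1.17 (Psmb9 to Psmb6) and -1.86 to -1.72 (Psmb10 to Psmb7) with a library left out, and stayed past the threshold. Between the labels they lay around 0 with a library left out, from -0.062 to 0.059, -0.13 to 0.083 and -0.036 to 0.13, and did not pass the test. The sign turned for the first pair at 0.017 to 0.059, for the second at 0.018 to 0.083 (-0.12 without WT day 0 replicate 1) and for the third at -0.036 to -0.019. FPKM values or a pseudocount of 5 changed no ratio call. The calls of Psmb9, Psmb10, Psme1 and Psmd5 under both labels held in all 16 alternatives. Psma8 rested on 503 counts, and standard errors of the label differences on day 3 ran from 0.0941 (Psmd11) to 0.501 (Psmc3ip), so small differences between the labels were not detectable with 3 libraries a group.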
